A study of Mus musculus with 3 samples.

Results

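The genes described here are 10 genes of the cartilage program in the mouse mandibular condyle, the lower jaw's side of the temporomandibular joint. They are the transcription factor genes Sox9, Sox5 and Sox6 and the noncollagenous matrix genes Acan, Hapln1, Comp, Matn3, Cnmd, Snorc and Ucma. The members were found by their symbols, and all 10 had 1 row each among the 26970 genes with values. RNA was sequenced from condyles of 4-month-old mice in 3 libraries, with 1 library each for WT, Dspp+/- and Dspp-/-. The condyles were taken with cartilage and subchondral bone still joined, so each library holds both tissues. The Dspp-/- mice lacked the dentin sialophosphoprotein gene in the whole body and had a C57BL/6 background. The Dspp+/- mice, with 1 working copy, came from crossing Dspp-/- with C57BL/6 wild-type mice. The WT and Dspp+/- libraries were each made from pooled tissue of 3 animals, and the number behind the Dspp-/- library is not given in the sources used here. The comparisons ask how the RNA of the condyle differs when 1 or both copies of Dspp are lost.

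SOX9 is the transcription factor that starts and maintains the chondrocyte program, and it acts together with SOX5 and SOX6, which have no activation domain of their own and raise the activity of SOX9 at cartilage enhancers. Among the known targets of this trio are the genes of aggrecan, the large proteoglycan that holds water in cartilage, and of link protein, which fastens aggrecan to hyaluronan. In the mandibular condyle the cartilage is a thin layer under a fibrous cover, and its deep chondrocytes are replaced by bone. Loss of this cartilage is a hallmark of osteoarthritis of this joint.

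Since each genotype had 1 library, genotypes could not be tested against each other, and what is given below are differences between single libraries of pooled tissue. Values are FPKM, which is fragments scaled to gene length and to the size of the library, as read from the deposited values. The depth behind them, inferred from the values as were the fragment numbers, was between 20241581 and 23613627 fragments. Intervals, at the 95% level, come from the fragment numbers and cover counting error only, not the spread between mice. The libraries stood apart in more than the genotype. Mitochondrial genes took 25.0% of the summed FPKM in WT, with 36.9% in Dspp+/- and 37.3% in Dspp-/-. Xist, the RNA of the inactive X chromosome, had 2 fragments in WT and 12084 and 10563 in the Dspp+/- and Dspp-/- libraries, while the Y-linked Ddx3y stood at 22.5, 11.1 and 15.1 FPKM and Eif2s3y, Kdm5d and Uty were also highest in WT. The sexes in the pools and the genotype therefore cannot be told apart. The genotype labels were not checked against Dspp, which was not analysed here. Of 8 chondrocyte markers, Col2a1, Col9a1, Col9a2, Col9a3, Col11a2 and Chad were present in every library, but Matn1 had 0 to 3 fragments and Epyc 0 to 6.

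Data showed that 9 of the 10 genes were lower in both mutant libraries than in WT, and Sox6 was the exception. Of the 13026 genes whose mean reached 1 FPKM, 43.7% were lower in Dspp+/- and 49.3% in Dspp-/-. The summed FPKM of Acan, Hapln1, Matn3, Cnmd, Snorc and Ucma was 176 in WT, 42.0 in Dspp+/- and 93.2 in Dspp-/-. For the 3 SOX factors the sums were closer together, at 19.1, 13.9 and 15.9 FPKM. They join Sox6, which was higher in both mutant libraries, with Sox9 and Sox5, which were lower. Comp alone held 70.3% of the FPKM of the 10 genes in WT, 84.8% in Dspp+/- and 67.5% in Dspp-/-. In bulk tissue, fewer chondrocytes and less RNA per chondrocyte cannot be told apart.

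**Figure D1:**
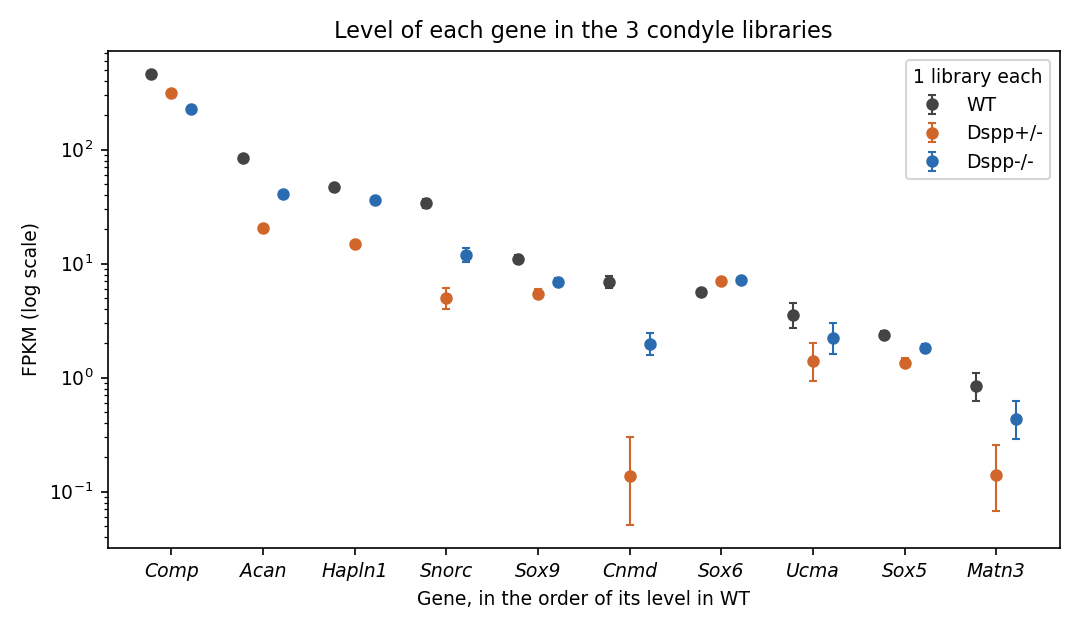
FPKM of the 10 genes (vertical axis, log scale) in the WT, Dspp+/- and Dspp-/- libraries, with the genes in the order of their WT level and 95% counting intervals as bars. Only Sox6 lies above its WT level in the mutant libraries, and Cnmd shows the widest drop, from 6.94 FPKM in WT to 0.138 in Dspp+/-.

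In WT the order of levels per length was Comp, Acan, Hapln1, Snorc, Sox9, Cnmd, Sox6, Ucma, Sox5 and Matn3, and no neighbours in it had overlapping counting intervals. The first 3 places were the same in each library. Below them the order changed. In Dspp+/-, Sox6 took the place after Hapln1, the intervals of Sox9 and Snorc overlapped, as did those of Ucma and Sox5, and Matn3 and Cnmd were last with overlapping intervals. In Dspp-/-, Snorc kept the fourth place and Matn3 the last, the intervals of Sox6 and Sox9 overlapped, and Ucma overlapped with Cnmd and Cnmd with Sox5. Among the 26970 genes, Comp ranked 53 in WT, 83 in Dspp+/- and 109 in Dspp-/-. Acan ranked 366, 1922 and 834. The rank of Cnmd was 5499 in WT but 18666 in Dspp+/- and 10937 in Dspp-/-.

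Among the transcription factors, Sox9 (ENSMUSG00000000567, chromosome 11, 112673050 to 112678586, plus strand, in the positions of the authors' table, whose build is not named) had 11.1 FPKM in WT, compared with 5.45 in Dspp+/- and 6.90 in Dspp-/-. It was highest in WT and lowest in Dspp+/-. The ratio to WT was 0.492 (interval 0.441 to 0.548) in Dspp+/- and 0.623 (0.562 to 0.690) in Dspp-/-. Sox5 (ENSMUSG00000041540, chromosome 6, 143774151 to 144727703, minus strand) had 2.37, 1.36 and 1.81 FPKM in the same order of libraries. It followed Sox9 in its order, with a smaller difference, at ratios of 0.572 (0.507 to 0.644) and 0.763 (0.682 to 0.854). An antisense gene, Sox5os1, covers 9.25% of the Sox5 exon length in GENCODE M21, and without strand the reads of both cannot be told apart there. None of the other 9 genes overlaps another gene in its exons.

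Sox6 (ENSMUSG00000051910, chromosome 7, 115070107 to 115638031, minus strand) had 5.63 FPKM in WT, against 7.06 in Dspp+/- and 7.21 in Dspp-/-. Its level was higher in both mutant libraries than in WT, and the mutant libraries differed from each other by less than counting error. The ratio to WT was 1.25 (1.18 to 1.34) and 1.28 (1.20 to 1.36), and the ratio of Dspp+/- to Dspp-/- was 0.979 (0.925 to 1.04). Sox9 was thus the most abundant of the trio in WT, Sox6 was in Dspp+/-, and in Dspp-/- the intervals of both overlapped. Outside cartilage, Sox6 is also active in red blood cell precursors and in muscle. The 6 erythroid markers summed to 435 FPKM in WT, with 1933 in Dspp+/- and 2002 in Dspp-/-, and the 5 skeletal muscle markers to 7939, 11140 and 9310, although 1 of these, Myh4, was at least 2-fold lower in Dspp+/-. The part of these cells in the Sox6 values was not tested.

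Acan (ENSMUSG00000030607, chromosome 7, 78703231 to 78764847, plus strand), the aggrecan core protein gene, had 84.1 FPKM in WT, compared with 20.4 in Dspp+/- and 40.4 in Dspp-/-. The WT level was the highest and the Dspp+/- level the lowest. These values rest on 12708, 3590 and 6721 fragments. The ratio to WT was 0.242 (interval 0.233 to 0.251) in Dspp+/- and 0.481 (0.467 to 0.496) in Dspp-/-. Hapln1 (ENSMUSG00000021613, chromosome 13, 89687915 to 89759771, plus strand), which encodes link protein, had 46.8, 15.0 and 36.2 FPKM. Here the Dspp-/- level was closer to WT than to Dspp+/-. Its ratios to WT were 0.320 (0.305 to 0.337) and 0.773 (0.744 to 0.804). Set against aggrecan in the same library, Hapln1 stood at 55.7% of the Acan level in WT, 73.6% in Dspp+/- and 89.5% in Dspp-/-.

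Snorc (ENSMUSG00000026258, chromosome 1, 87397993 to 87403204, plus strand), a small chondroitin sulfate proteoglycan of the chondrocyte surface, had 33.8 FPKM in WT, against 4.99 in Dspp+/- and 12.0 in Dspp-/-. Behind these stood 494, 85 and 192 fragments. The mutant libraries both lay far under WT, at ratios of 0.148 (0.116 to 0.186) and 0.354 (0.298 to 0.419). Cnmd (ENSMUSG00000022025, chromosome 14, 79875130 to 79899610, minus strand), the gene of chondromodulin, a matrix protein that keeps vessels out of cartilage, had 6.94, 0.138 and 1.98 FPKM. Its Dspp+/- value rests on 6 fragments, against 259 in WT and 81 in Dspp-/-, and it showed the lowest ratio of the 10 genes in both mutant libraries. The ratio was 0.0199 (interval 0.00722 to 0.0438) in Dspp+/- and 0.285 (0.219 to 0.366) in Dspp-/-, where the interval overlaps that of Snorc.

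Matn3 (ENSMUSG00000020583, chromosome 12, 8997929 to 9022028, plus strand), the gene of matrilin-3, which bridges collagen and proteoglycan, was the least abundant of the 10 in WT, with 51 fragments there, 10 in Dspp+/- and 29 in Dspp-/-. These are 0.836, 0.141 and 0.432 FPKM. It had the order of Acan, with wide intervals, at ratios of 0.168 (0.0761 to 0.335) and 0.517 (0.316 to 0.832). Ucma (ENSMUSG00000026668, chromosome 2, 4980933 to 4990559, plus strand), a small secreted protein of upper-zone chondrocytes that is rich in Gla residues, had 3.52, 1.39 and 2.24 FPKM from 63, 29 and 44 fragments. It was highest in WT and lowest in Dspp+/-. The ratios were 0.395 (0.245 to 0.622) and 0.635 (0.422 to 0.949), and in Ucma the mutant libraries did not differ beyond counting error, with a ratio of 0.621 (0.375 to 1.02).

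Comp (ENSMUSG00000031849, chromosome 8, 70826208 to 70834716, plus strand) encodes a pentameric matrix protein of cartilage, tendon and ligament. It had 462 FPKM in WT, compared with 312 in Dspp+/- and 227 in Dspp-/-. Unlike the other 8 genes that were lower, Comp was lowest in Dspp-/-. Its ratio to WT was 0.675 (interval 0.663 to 0.687) in Dspp+/- and 0.491 (0.482 to 0.501) in Dspp-/-. In the same libraries, the 5 tendon and fibrous layer markers, led by Fmod, summed to 1232 FPKM in WT, against 792 in Dspp+/- and 770 in Dspp-/-. Among these markers, the ratio to WT in Dspp-/- ran from 0.460 (Scx) to 1.16 (Tnmd, interval 0.930 to 1.44). Fmod, which held most of the sum, was at 0.60 in both mutant libraries. The part of such cells in the Comp values was not tested.

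The promoters of Acan, Hapln1, Matn3 and Cnmd are shown because these genes had the lowest Dspp+/- ratios among the members with an entry in the RefSeq promoter table. Each runs from 250 bases before to 50 bases after the start of the gene on GRCm38.p6, a different build from the positions above. They lie at chr7:79052976-79053275 (plus strand) for Acan, chr13:89540386-89540685 (plus) for Hapln1, chr12:8947679-8947978 (plus) for Matn3 and chr14:79662134-79662433 (minus) for Cnmd. Capitals mark ACAAT and ACAAAG, letters that SOX proteins are known to bind, and CCAAT, each searched on both strands so that matches to other motifs may share bases.
Acan: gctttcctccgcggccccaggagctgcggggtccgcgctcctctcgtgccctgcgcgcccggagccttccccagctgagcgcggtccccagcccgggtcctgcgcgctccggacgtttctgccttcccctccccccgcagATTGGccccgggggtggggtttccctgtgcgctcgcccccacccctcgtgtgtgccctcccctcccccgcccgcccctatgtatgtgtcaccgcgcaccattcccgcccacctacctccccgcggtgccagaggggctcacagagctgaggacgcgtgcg
Hapln1: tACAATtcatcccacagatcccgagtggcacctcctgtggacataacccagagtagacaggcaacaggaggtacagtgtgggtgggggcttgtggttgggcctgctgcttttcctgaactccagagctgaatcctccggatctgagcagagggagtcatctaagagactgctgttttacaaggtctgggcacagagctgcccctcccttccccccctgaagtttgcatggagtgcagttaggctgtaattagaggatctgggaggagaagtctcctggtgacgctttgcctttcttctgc
Matn3: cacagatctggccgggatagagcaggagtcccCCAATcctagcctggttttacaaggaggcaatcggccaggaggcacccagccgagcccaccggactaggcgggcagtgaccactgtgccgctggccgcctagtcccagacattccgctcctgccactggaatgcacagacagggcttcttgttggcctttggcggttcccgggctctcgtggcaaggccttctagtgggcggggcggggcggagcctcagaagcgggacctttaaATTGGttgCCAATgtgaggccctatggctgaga
Cnmd: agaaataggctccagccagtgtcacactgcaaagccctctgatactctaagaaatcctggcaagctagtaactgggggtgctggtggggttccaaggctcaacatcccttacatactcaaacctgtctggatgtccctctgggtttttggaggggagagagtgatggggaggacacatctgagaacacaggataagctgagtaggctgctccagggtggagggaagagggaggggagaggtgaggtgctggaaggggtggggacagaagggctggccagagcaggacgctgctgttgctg
Hapln1 holds 1 ACAAT at its far end, with its first base at -249 from the start. Acan holds 1 CCAAT and Matn3 holds 3, and the Cnmd window has none of the 3 motifs. Of 32851 promoters of this length, 42.9% hold ACAAT or ACAAAG and 37.4% hold CCAAT, so these matches are common. The Acan promoter is 74% G and C, at percentile 95.2 of all promoters, where the median is 52.7%. Promoter entries existed for 7 of the 10 genes, and Sox9, Comp and Snorc had none. All 6 entries of Sox6 and the 1 of Sox5 hold ACAAT or ACAAAG, and that of Ucma holds CCAAT.

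To count the members against the rest of the genes, log2 ratios of FPKM + 1, a scale that understates the change of low genes, were taken for the 13026 genes whose mean over the libraries reached 1 FPKM. Matn3, with a mean of 0.470 FPKM, was left out, and the other 9 were compared. In Dspp+/-, 4 of 9 were at least 2-fold lower than WT, namely Acan, Hapln1, Cnmd and Snorc, where 2.86% of all compared genes were. None of the 9 was at least 2-fold higher, against 4.88% of all genes. In Dspp-/-, 4 of 9 were at least 2-fold lower, namely Acan, Comp, Cnmd and Snorc, against 1.37% of all genes, and none was at least 2-fold higher, against 4.05%. Acan, Cnmd and Snorc passed in both. The Dspp-/- count was 2 with scaling without mitochondrial genes, where Acan and Comp no longer passed, and 2 with a pseudocount of 5 FPKM, where Acan and Cnmd no longer passed, against 1.08% and 0.345% of all genes. Both comparisons use the same WT library, so they are not independent of each other.

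The log2 ratios on this scale spread from -2.80 (Cnmd) to 0.28 (Sox6) in Dspp+/- and from -1.43 (Snorc) to 0.31 (Sox6) in Dspp-/-. Their median was -0.92 in Dspp+/- and -0.61 in Dspp-/-, where the median of all compared genes was 0.06 and 0.01. Acan was at -1.99 and -1.04, Hapln1 at -1.58 and -0.36, and Snorc at -2.54 and -1.43. In Dspp+/-, Sox9 at -0.91 and Sox5 at -0.52 lay nearer to 0 than these matrix genes, as did Comp at -0.565. In Dspp-/-, Sox5 was at -0.26, but Sox9, at -0.61, lay farther from 0 than Hapln1. Comp was at -1.02 in Dspp-/-, just past 2-fold. Without the added 1 FPKM, 7 of the 10 genes, Matn3 included, were at or under 0.5 of WT in Dspp+/- and 4 in Dspp-/-, where 4.94% and 3.07% of the 13026 genes were. The median ratio of the 10 was 0.358 and 0.570.

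**Figure D2:**
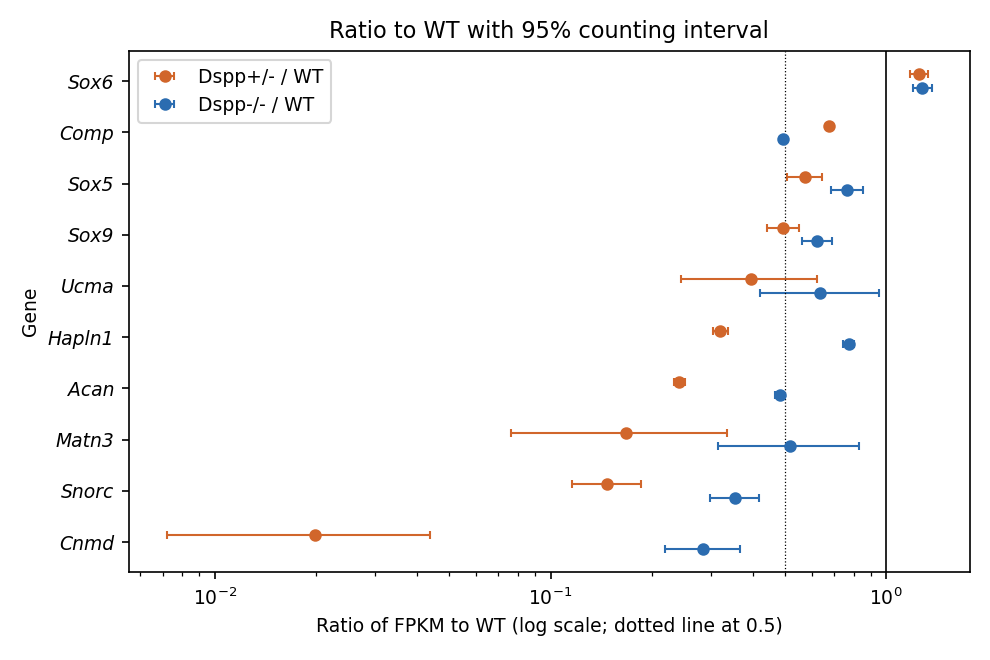
Ratio of FPKM to WT (horizontal axis, log scale) for the 10 genes in Dspp+/- and Dspp-/-, with 95% counting intervals as bars, a solid line at 1 and a dotted line at 0.5. In each mutant library 9 of the 10 intervals lie wholly below 1 and that of Sox6 lies above it, where 28.4% of 12981 compared genes with fragment numbers lie below and 39.4% above in Dspp+/-, and 33.5% and 34.1% in Dspp-/-.

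Set directly against each other, the mutant libraries were not in the order of lost gene copies. The Dspp+/- level was below the Dspp-/- level beyond counting error in 7 of the 10 genes and above it in 1, where 25.5% and 34.6% of the 12981 genes were. On the log2 scale of the 9 compared genes, Hapln1, Cnmd and Snorc were at least 2-fold lower in Dspp+/- than in Dspp-/-, where 0.852% of all compared genes were. None was at least 2-fold higher, against 0.798% of all genes. The ratio of Dspp+/- to Dspp-/- was 0.0698 (0.0249 to 0.159) for Cnmd, 0.414 (0.393 to 0.436) for Hapln1, 0.417 (0.319 to 0.541) for Snorc and 0.503 (0.483 to 0.524) for Acan. For the SOX factors it was 0.790 (0.702 to 0.887) in Sox9 and 0.749 (0.661 to 0.848) in Sox5. Comp went the other way, at 1.37 (1.35 to 1.40), and in Sox6 and Ucma the interval included 1.

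A ratio of genes within 1 library does not move with the scaling of that library. Col2a1, the collagen of cartilage and itself a SOX9 target, had 761 FPKM in WT, with 94.2 in Dspp+/- and 308 in Dspp-/-, so it was lower by more than most of the 10 genes. Against Col2a1, the SOX factors were higher in the mutant libraries than in WT. Any gene lower by less than Col2a1 is higher over it, and Col2a1 was at 0.124 of WT in Dspp+/- and 0.405 in Dspp-/-. The median log2 ratio of all compared genes was 0.06 and 0.01, so a typical gene is higher over Col2a1 as well. Sox9 over Col2a1 was 3.97 times its WT value in Dspp+/- and 1.54 times in Dspp-/-, and Sox6 over Col2a1 was 10.1 and 3.16 times. Acan over Col2a1 was 1.96 (1.88 to 2.04) and 1.19 times its WT value, and Comp over Col2a1 was 5.45 (5.33 to 5.58) and 1.21 times. Snorc kept closest to Col2a1, at 1.19 (0.946 to 1.5) and 0.873 (0.739 to 1.03), intervals that include 1 in both libraries, and those of Matn3, which are wide, include 1 as well. Cnmd alone was lower relative to Col2a1 in both, at 0.160 (0.0714 to 0.360) and 0.702 (0.547 to 0.902).

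Against Col1a1, the main collagen of bone and fibrous tissue, which had 6675, 1719 and 3610 FPKM, the order was different. Acan over Col1a1 was 0.941 (0.906 to 0.976) of its WT value in Dspp+/- and 0.890 (0.864 to 0.917) in Dspp-/-, so aggrecan and the bone collagen were lower by nearly the same factor. Snorc over Col1a1 was 0.573 and 0.654 of WT, and Cnmd over Col1a1 was 0.0771 and 0.526. Comp over Col1a1 was 2.62 times WT in Dspp+/- but 0.908 in Dspp-/-. Sox9 stood at 13.2% of the Acan level in WT, but at 26.8% in Dspp+/- and 17.1% in Dspp-/-, and Sox6 at 6.70%, 34.7% and 17.8%. The ratio of Comp to Acan was 5.49 in WT, 15.3 in Dspp+/- and 5.61 in Dspp-/-.

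**Figure D3:**
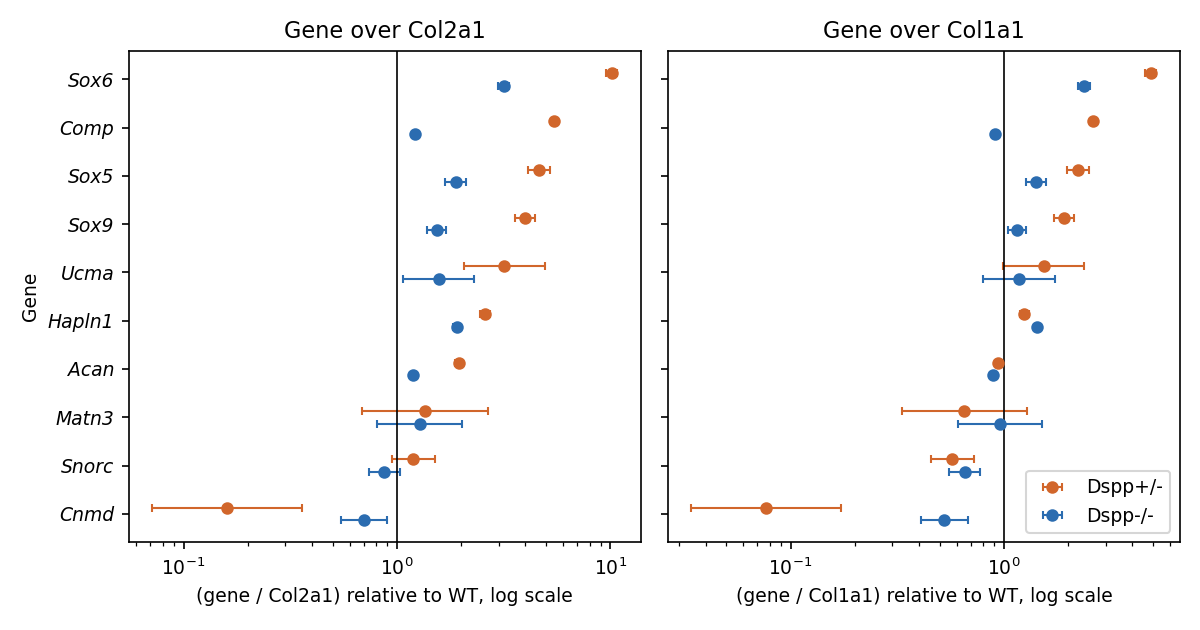
Each gene over Col2a1 (left) and over Col1a1 (right), relative to the same quotient in WT (horizontal axes, log scale), for Dspp+/- and Dspp-/- with 95% counting intervals as bars and a line at 1. Over Col2a1 the SOX factors and Comp lie right of the line and Cnmd left of it, and over Col1a1 Acan lies just left of 1 at 0.941 and 0.890.

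Among the other genes of the cartilage program, the collagens had the largest differences. All 8 cartilage collagens were at least 2-fold lower in Dspp+/- and 5 of 8 in Dspp-/-, with medians of -2.90 and -1.25 on the log2 scale. For this and the lists that follow, the shares of all compared genes at least 2-fold lower were 2.86% and 1.37%. The 5 that passed in both include Col2a1, Col10a1 (246, 17.3 and 107 FPKM), the collagen of hypertrophic chondrocytes, Col11a2 (146, 32.9 and 49.3) and Col9a2 (22.2, 2.19 and 6.27). Of 21 other SOX genes and chondrocyte regulators 17 were compared, 3 were at least 2-fold lower in Dspp+/- and 2 in Dspp-/-, and the medians were -0.63 and -0.39. Those lower in both were Ihh (17.5, 4.77 and 5.71 FPKM), the hedgehog ligand of prehypertrophic cells, and Pth1r (164, 60.5 and 76.6), the receptor of parathyroid hormone-related protein.

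Of 27 other noncollagenous matrix genes, 22 were compared, 8 were at least 2-fold lower in Dspp+/- and 2 in Dspp-/-, and the medians were -0.66 and -0.58. Clec3a (265, 88.3 and 130 FPKM), a cartilage lectin, was the only one past 2-fold in both. For 26 genes of chondroitin sulfate synthesis, which make the sugar chains of aggrecan, the medians were -0.44 and -0.30, with 2 at least 2-fold lower in Dspp+/- and 0 in Dspp-/-. Chpf had 23.0 FPKM in WT, compared with 10.9 in Dspp+/- and 11.8 in Dspp-/-, and Chpf2 had 8.10, 2.96 and 3.82. For 13 proteases that cut proteoglycans and their inhibitors the medians were -0.96 and -0.46, with 6 at least 2-fold lower in Dspp+/- and 0 in Dspp-/-. Mmp13, the collagenase of hypertrophic cartilage and bone, had 649, 240 and 487 FPKM. No gene of these lists was at least 2-fold higher in either mutant library, against 4.88% of all compared genes in Dspp+/- and 4.05% in Dspp-/-. At least 2-fold lower were 2.86% and 1.37% of all compared genes.

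**Figure D4:**
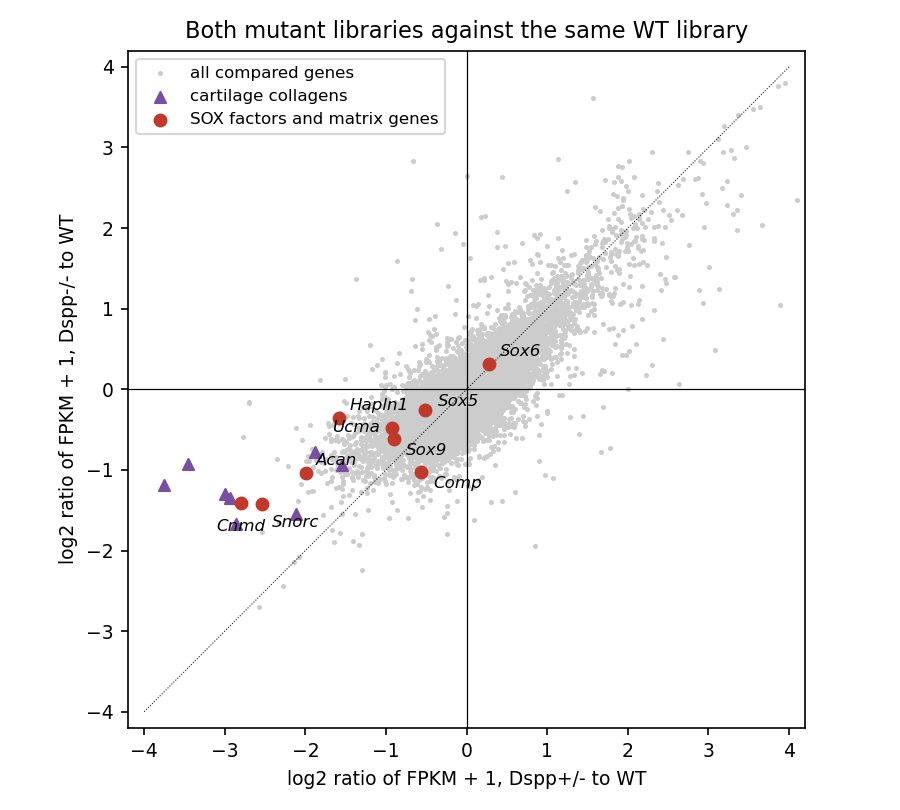
Log2 ratio of FPKM + 1 to WT in Dspp+/- (horizontal) and in Dspp-/- (vertical) for all 13026 compared genes in grey, with 9 of the SOX factors and matrix genes in red and 8 cartilage collagens as purple triangles. Cnmd, Snorc and Acan lie among the collagens at the lower left, Sox9, Sox5 and Ucma lie nearer to 0, Comp lies under the diagonal, and Sox6 is the only member right of 0, inside the cloud of all genes.

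The genes whose pair of log2 ratios lay nearest to that of Acan were Sparc, at a distance of 0.115, Col1a2 at 0.144, Cgref1 at 0.144, Car12 at 0.152 and Col1a1 at 0.155. No gene lay within 0.1 of Acan. The nearest to Sox9 were Mamdc2, at a distance of 0.0094, Gpx3 at 0.015, Dnm1 at 0.020, Ffar4 at 0.021 and Bmp3 at 0.022, and 69 genes lay within 0.1. These likenesses are over 2 ratios to the same WT library and are a description only.

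Markers of other cells differed between the libraries too. Beside the lower cartilage genes, the 6 osteoblast markers, led by Col1a1, summed to 9974 FPKM in WT, against 2647 in Dspp+/- and 5227 in Dspp-/-. The 4 osteocyte markers, led by Mepe, summed to 884, 363 and 349, and the 5 osteoclast markers, led by Ctsk, to 2191, 773 and 1265. On the log2 scale, at least 2-fold lower in Dspp+/- were 6 of the 6 osteoblast, 3 of the 4 osteocyte and 4 of the 5 osteoclast markers, and in Dspp-/- these were 2, 3 and 0. Of all compared genes, 2.86% were at least 2-fold lower in Dspp+/- and 1.37% in Dspp-/-. The chondrocyte list, led by Chad, summed to 1926, 774 and 901 FPKM, and the hypertrophic list, led by Col10a1, to 428, 82.5 and 190. Chad alone had 962, 643 and 523 FPKM, so it held most of the chondrocyte sum in both mutant libraries. Of the 6 chondrocyte markers compared, 5 were at least 2-fold lower in Dspp+/- and 4 in Dspp-/-, with median log2 ratios of -2.90 and -1.33. Markers of bone and of cartilage thus had lower sums in the same libraries, and those of marrow cells had higher ones. Besides the erythroid list, in which Hbb-bs had the highest WT level, the 6 neutrophil markers, led by S100a9, summed to 405, 1920 and 2573 FPKM, and all 6 of each list were at least 2-fold higher in both mutant libraries. The 5 B cell markers, led by Cd79b, summed to 16.1, 57.6 and 39.9, with 4 of 5 at least 2-fold higher in both. The other, Vpreb1, was lower in Dspp+/-, at a ratio of 0.403 (0.208 to 0.751), and at 1.04 (0.642 to 1.70) in Dspp-/-. Of all compared genes, 4.88% were at least 2-fold higher in Dspp+/- and 4.05% in Dspp-/-. No marker of these 3 lists was at 0 in any library.

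The 4 endothelial markers, led by Cdh5, summed to 104 FPKM in WT, with 123 in Dspp+/- and 117 in Dspp-/-, and the 4 Schwann cell markers, led by Pmp22, to 51.1, 42.1 and 50.3. In muscle, Acta1 had the highest WT level. The 3 adipocyte markers summed to 30.7, 15.5 and 79.8, and Cfd, with 23.5, 8.50 and 62.0 FPKM, was past 2-fold in opposite directions. How far the share of each tissue in the dissected condyles entered the values of the SOX factors and matrix genes was not tested.

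**Figure D5:**
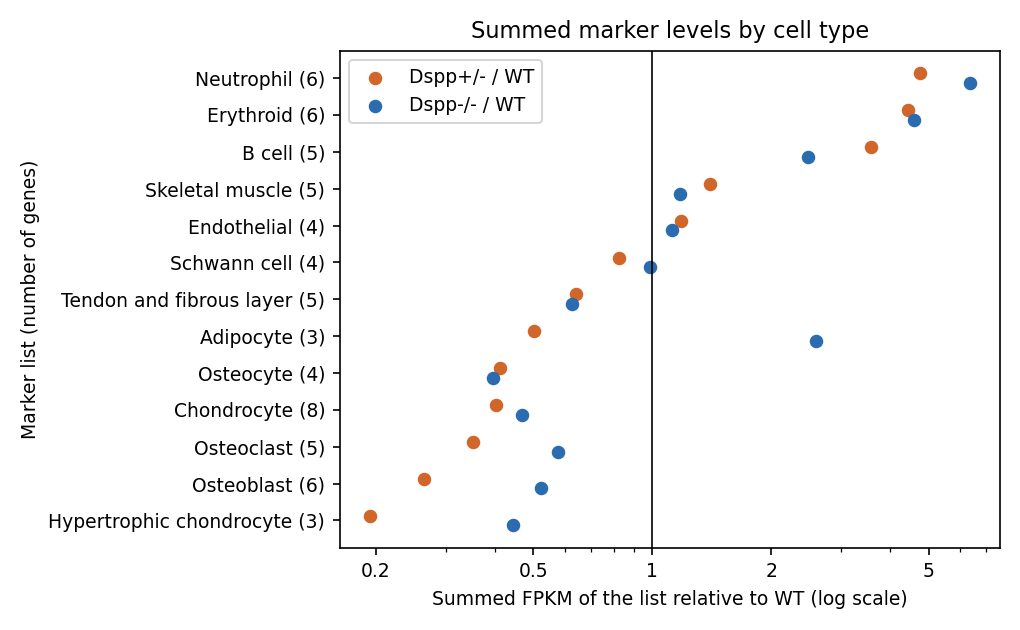
Summed FPKM of 13 marker lists relative to WT (horizontal axis, log scale) for Dspp+/- and Dspp-/-, with the number of genes in each list in brackets and a line at 1. Cartilage and bone lists lie left of the line in both libraries, erythroid, neutrophil and B cell lists lie right of it, and the adipocyte list lies on opposite sides.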

How the data were processed

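The authors deposited 1 table with 1 value per gene and library, an FPKM by its values, since its unit is not named and counting, normalization and filters are not given in the sources used here. Fragment numbers and depths were inferred from these values. They were multiplied by the merged exon length of GENCODE M21, and a constant was fitted per library of which they are whole multiples. This constant gave the depth. Divided by it, the values were whole numbers, within 0.05, for 98.6% to 98.7% of genes under 100 fragments. Genes with more fragments were not checked in this way. The submitters' processing notes list FastQC 0.11.5, HISAT2 2.1.0, StringTie 1.3.3b and DESeq 1.28.0, without roles, and name a human genome build for these mouse libraries. The table's positions are not those of GRCm38, since for only 578 genes both ends are those of GENCODE M21. Triplicates are mentioned in the protocol, yet a genotype has a single value per gene, so it was taken as 1 library (poly(A)-selected RNA, pairs of 150 bases). FPKM is relative to the library, so a gene loses FPKM when others take more of it.

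Intervals on ratios to another library are Clopper-Pearson, those on levels are exact Poisson, and those on a quotient relative to WT use a normal approximation to the log of 4 fragment numbers. Log2 ratios used a pseudocount of 1 FPKM, a mean of at least 1 FPKM and a threshold of 2-fold. On simulated data, 100% of 200 genes planted at 4-fold in Dspp+/- against WT and 7 of 12432 unchanged genes were called. The planted genes had a mean of at least 5 FPKM. The 100% therefore does not cover lower genes, such as Sox5, Cnmd and Ucma, or changes near 2-fold. With 1 library per genotype, the spread between mice was unknown and could not enter the simulation. The share of false calls in the real comparisons therefore cannot be read from the simulation. Members and lists were chosen with earlier results of these data known. Named genes are the 10 members, the up to 4 genes with the highest WT FPKM past 2-fold the same way in both mutants per list, those past it in opposite directions, the 5 nearest to Acan and to Sox9, the highest WT marker per cell type and the sex-linked genes. Chpf, Chpf2, Mmp13, Myh4, Scx, Tnmd, Vpreb1, Col9a1, Col9a3, Matn1 and Epyc fall outside this rule and were named after their values were seen. Other settings were a pseudocount of 0.1 or 5, a mean of 5 FPKM or no filter, 5 scalings and thresholds of 1.5-fold and 4-fold. The tools were matplotlib 3.10.9, scipy 1.17.1, pandas 2.3.3, numpy 2.4.6 and Python 3.11.15. Dspp was not analysed here.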

Additional observations from a re-analysis of the deposited data

How the results depend on the processing

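Of 11 other settings, 9 gave log2 ratios, and in these the 8 compared genes that were lower stayed lower and Sox6 stayed higher in both mutant libraries. Sox5, Cnmd and Ucma had 8 such values, as a mean of at least 5 FPKM left them out. Matn3 was compared only without the filter, at -0.69 in Dspp+/- and -0.36 in Dspp-/-. The log2 ratio of Sox6 lay between 0.11 and 0.32 in Dspp+/- and between 0.16 and 0.38 in Dspp-/-. A pseudocount of 0.1 FPKM moved the members' median to -1.28 in Dspp+/-, and a pseudocount of 5 FPKM moved it to -0.62 in Dspp+/- and -0.43 in Dspp-/-. With a mean of at least 5 FPKM, 6 members were compared, and their median was -1.24 in Dspp+/- and -0.82 in Dspp-/-. The count of members at least 2-fold lower in Dspp-/- went from 4 to 2 with a pseudocount of 5 and to 2 with scaling without mitochondrial genes. The first setting put Acan at -0.97 and Cnmd at -0.78, and the second put Acan at -0.96 and Comp at -0.94. At 4-fold the counts were 2 in Dspp+/- and 0 in Dspp-/-, against 0.184% and 0.0461% of all genes. At 1.5-fold they were 6 and 5, against 8.95% and 8.21%. In Dspp+/- the count was also 6 with a pseudocount of 0.1, with scaling without hemoglobin, immunoglobulin and muscle genes and with housekeeping scaling, which moved the median of all genes to -0.11 in Dspp+/- and -0.13 in Dspp-/-, while the members' median relative to it was -0.97 and -0.62. Of all genes, 4.64%, 4.42% and 4.47% passed in these 3 settings. Fragment numbers limit Cnmd and Matn3 most, with 6 and 10 fragments in Dspp+/-. No paired analysis was possible because each genotype has 1 library. No replicate could be left out for the same reason.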

Other observations

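Comp was not alone in being higher in Dspp+/- than in Dspp-/-. Among the 22 other noncollagenous matrix genes compared, 8 were higher in Dspp+/- than in Dspp-/- beyond counting error and 12 were lower, whereas all 8 cartilage collagens were lower. Over all genes with an interval, 34.6% were higher and 25.5% were lower. The 36.4% of this matrix list that were higher is thus near the share of all genes. The genes below were named after their values were seen. Cilp, a matrix protein of the intermediate zone of cartilage, had 99.1 FPKM in WT, against 144 in Dspp+/- and 76.3 in Dspp-/-, above WT in one mutant library and below it in the other. Prg4, the gene of lubricin, which coats the joint surface, had 43.8, 73.4 and 57.2 FPKM and was highest in Dspp+/-. Chad, a leucine-rich matrix protein, had 962, 643 and 523 FPKM, and Cytl1 had 94.6, 88.6 and 44.5, the same order as Comp. Thbs4, a thrombospondin of tendon in the family of Comp, had 181, 159 and 136 FPKM. With 1 library of pooled tissue per genotype, none of these differences has a replicate check.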
